A study of Mus musculus with 2 samples.

Results

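Amino acid transporters are membrane proteins that carry amino acids, and some close relatives of amino acids, into cells, out of them or across the membranes of lysosomes. The set described here holds the genes whose symbol begins with Slc1a, Slc3a, Slc6a, Slc7a, Slc36a, Slc38a or Slc43a and whose array probe was named by its RefSeq accession. It has 59 genes, read by 93 probes, of 18434 named genes in all. The symbol alone decides, so that the set includes Slc7a6os, which is named after its place opposite Slc7a6 and is no carrier. A further 5 genes of these families, Slc6a5, Slc6a16, Slc6a20a, Slc6a21 and Slc38a6, were not analysed here.

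The study compared 2 cultures of splenic CD4 T cells from wild type C57BL/6 mice, sorted magnetically to a labelled purity above 98%, each read on 1 single-colour array. Both cultures received TGF-beta at 3 ng/ml, were stimulated through the T cell receptor and CD28 for 2 days, and were harvested 3 days later, on day 5. The Th9 culture also had IL-4 at 10 ng/ml and an anti-IFN-gamma antibody at 1 µg/ml. For Th9+IFNgamma the IL-4 was 3 ng/ml, no such antibody is listed, and IFN-gamma was added at 10 ng/ml, so that IL-4 dose, antibody and IFN-gamma all differ and cannot be told apart. By the title, the study concerned Th1 development under IL-4 and TGF-beta. The labels do not say how many mice stood behind a culture. With 1 array a condition nothing below has a replicate or a test, and sizes are described against a 2-fold threshold.

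A T cell that has been activated grows and divides, and takes up far more amino acid than a resting cell. Glutamine enters largely through sodium-coupled carriers and exchangers, while leucine and other large neutral amino acids enter through heteromeric exchangers, in which a light chain carries the substrate and a heavy chain brings it to the cell surface. Leucine, arginine and glutamine are sensed at the lysosome by mTORC1, a kinase complex that drives growth. Transcription of several carriers is raised by ATF4 when amino acids are short and by MYC after activation.

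The main carriers for glutamine and the taurine carrier had nearly the same signal in both cultures, and a few other members differed. Slc6a13, a carrier of GABA and taurine, stood apart with a signal 7.59-fold higher in Th9+IFNgamma. Slc43a1 (2.06-fold) and Slc6a9 (2.03-fold) were also at least 2-fold higher, and Slc7a4 was 2.24-fold lower. Thus 3 of 28 members were past 2-fold as higher and 1 as lower, and among all named genes measured on both arrays these shares were 5.15% and 7.42%. The heavy chain gene Slc3a2 (1.58-fold) and its light chain partner Slc7a5 (1.60-fold) were higher together, whereas the partners Slc7a6 (1.34-fold) and Slc7a7 (1.53-fold) were lower. Of the 59 members, 28 (47.5%) were well above background on both arrays, 2 on the Th9+IFNgamma array alone, 4 on the Th9 array alone and 25 on neither. Over all named genes, 66.6% were well above background on both arrays.

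**Figure D1:**
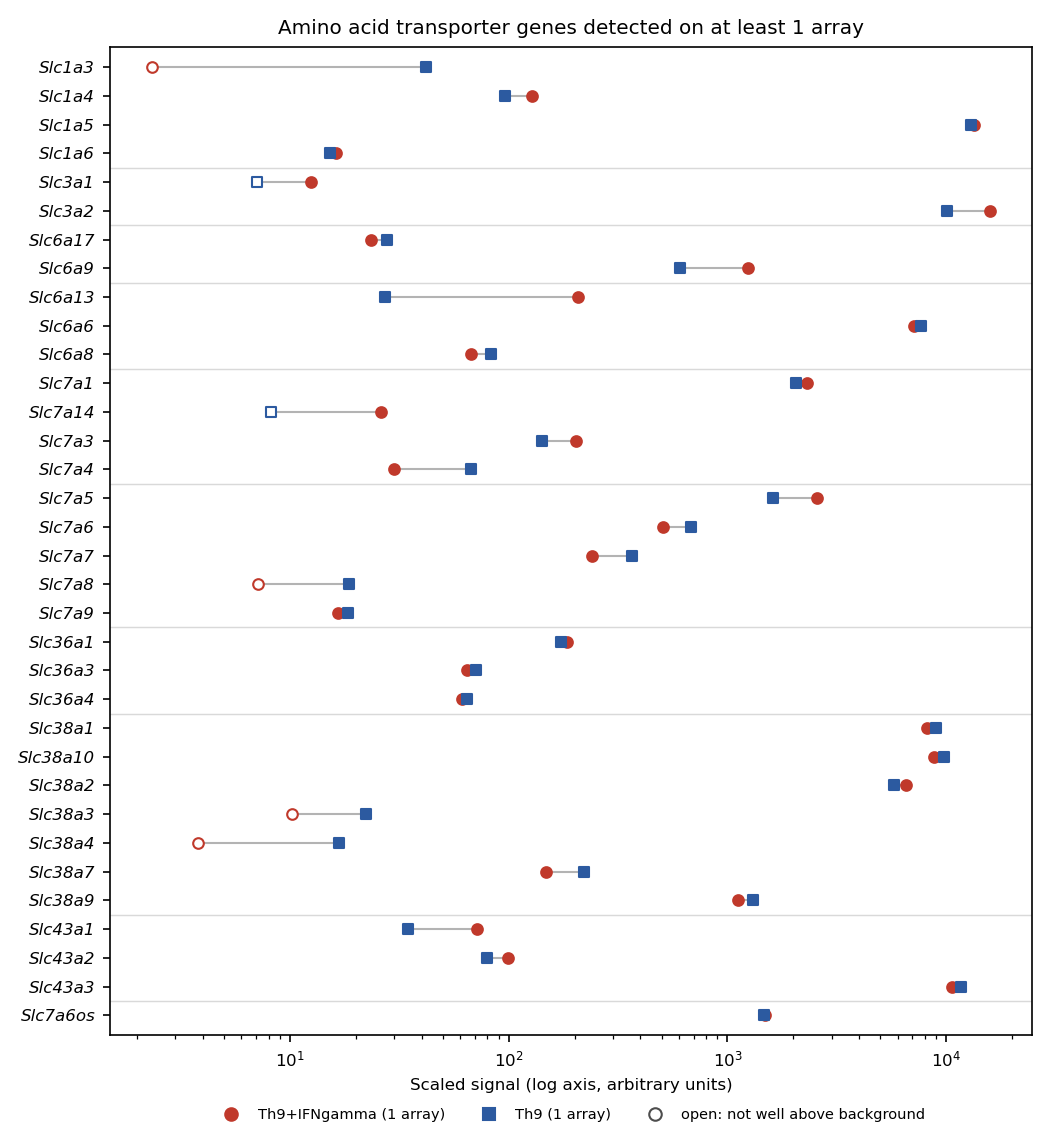
Scaled signal on a log axis for the 34 members well above background on at least 1 array, grouped by role, with circles for Th9+IFNgamma and squares for Th9 (1 array each) and open symbols where the signal was not well above background. Signals compare the arrays within a gene, not genes with each other; the widest gap among genes measured on both arrays is that of Slc6a13, at 208 and 27.3.

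Signals are linear intensities on a scale where the 75th percentile of each array is 599. They compare a gene between the arrays and never one gene with another, because probes differ in how well they bind. The extraction software attaches an error to each spot, and for the log2 difference of the 28 genes measured on both arrays this error ran from 0.20 to 0.38, with a median of 0.21. It covers the reading of 1 spot on each array and leaves out any spread between animals, cultures or labellings. The difference was smaller than this error for 14 of the 28 genes and more than 2 errors for 10, of which 6 were higher and 4 lower in Th9+IFNgamma. All 10 kept their direction under every alternative processing that gave them a value, as did 20 of the 28 in all. For the 10 this says little. Rescaling moves all genes by about the same small amount, and the deposited table and the filters left their values nearly unchanged. Those alternatives could not reverse differences of this size. No member was printed more than once on an array. In bulk RNA, fewer cells of a type and less RNA per cell cannot be told apart.

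The cells carried the markers of their label, as all 12 T cell genes of a marker list, among them Cd3e and Cd4, were well above background on both arrays. Their summed signal was 362439 in Th9+IFNgamma and 288400 in Th9, with 8 genes higher in the former and 4 lower. Cd247 was 2.13-fold higher there by its brightest probe, and its 3 probes ran from 0.19 to 1.09 in log2 difference. Cd8a was also detected (1338 and 1074). Among markers of other cell types, 3 of 7 B cell genes were measured on both arrays, with a summed signal over the list of 941 against 1467, and both arrays left Pax5 and Blk undetected. Cd22 was detected in Th9 alone, 13.3-fold higher there or more. Of 7 macrophage genes 3 were measured (97.1 against 252 in sum, where Adgre1 was 7.19-fold lower in Th9+IFNgamma, Cd14 1.24-fold higher and Csf1r at 34.1 and 34.3), and Lyz2, Itgam and Fcgr1 were among those undetected on both. The sums were 154 against 171 for 5 dendritic cell genes (3 measured), 166 against 205 for 4 NK cell genes (3 measured), 104 against 96.3 for 8 granulocyte, mast cell and basophil genes (2 measured) and 171 against 279 for 4 erythroid genes (2 measured). Within these lists genes went opposite ways. In Th9+IFNgamma Epor was 3.24-fold lower and Klf1 2.90-fold higher, and Klra8 4.59-fold lower and Klrk1 1.41-fold higher. Fcer1a was 2.22-fold higher there and Mpo 1.49-fold lower. With normexp, another background correction, the log2 differences were -1.02 for Epor, 0.49 for Klf1, -0.88 for Klra8 and 0.34 for Klrk1. They were 0.35 for Fcer1a, -0.41 for Mpo, -1.45 for Adgre1 and -1.71 for Cd22. The part of these markers in the differences below was not tested.

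Heavy chains come first, since they decide which light chains reach the surface. Slc3a2 encodes CD98 heavy chain, also called 4F2hc, which pairs with most light chains of the Slc7 family. Its signal was 15860 in Th9+IFNgamma and 10036 in Th9, and a second probe read 364 and 240.3. The log2 differences of the probes were 0.66 and 0.60, against an extraction error of 0.20, and the range over the alternatives was 0.56 to 0.77. Both probes were therefore higher in Th9+IFNgamma by about the same ratio. Slc3a1, the heavy chain of kidney and gut, was close to background, at 12.5 on the Th9+IFNgamma array, where it was detected, and 7.09 on the Th9 array, where it was not, which gives no bound on a fold.

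The stretch upstream of Slc3a2 is shown because it is the only part of the CD98 and LAT1 pair for which a start site window was at hand. Windows here are the 250 bases before an annotated start, credited to RefSeq on GRCm38.p6, with 1 window for each start. The one before the most upstream start is printed, 5′ to 3′ on the gene's strand, in lower case with motif matches in capitals. Of the 59 members, 41 had windows, 61 in all, and Slc7a5 and Slc7a4 were among those without one. Motifs were searched on both strands, namely the amino acid response element core TGATGNAAN bound by ATF4 with C/EBP partners, the GAS element TTCNNNGAA of STAT factors, the ISRE core GAAANNGAA, the T-box element AGGTGTGA and the E-box CACGTG, where GAS and ISRE can share the letters GAA. The window of Slc3a2, at chr19:8713898-8714147 on the minus strand, held none of the 5 motifs.
Slc3a2: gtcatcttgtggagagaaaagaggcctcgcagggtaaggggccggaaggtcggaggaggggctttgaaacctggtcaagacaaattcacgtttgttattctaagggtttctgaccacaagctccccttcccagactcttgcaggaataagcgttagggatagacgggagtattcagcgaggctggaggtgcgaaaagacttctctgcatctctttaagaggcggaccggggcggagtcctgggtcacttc

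Among light chains, 4 of 10 were measured on both arrays, 1 was detected on the Th9 array alone and 5 on neither. Slc7a5 encodes LAT1, the exchanger that imports leucine and other large neutral amino acids in trade for glutamine. It was read at 2572 in Th9+IFNgamma and 1608 in Th9, a log2 difference of 0.68 with an error of 0.20, and 0.64 to 0.79 over the alternatives. The ratio was close to that of its heavy chain Slc3a2, and both lay under the 2-fold threshold.

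Slc7a7 and Slc7a6, other light chains that pair with CD98 heavy chain, were lower. They encode y+LAT1 and y+LAT2, which export cationic amino acids in exchange for neutral ones and sodium. Slc7a7 was read at 239 in Th9+IFNgamma and 367 in Th9, a log2 difference of -0.61 (error 0.20, alternatives -0.64 to -0.50). Slc7a6 was at 507 and 681, and its probes gave -0.42 and -0.40 (alternatives -0.45 to -0.25). Slc7a8, which encodes LAT2, was close to background, with 7.17 in Th9+IFNgamma, not well above background, and 18.6 in Th9, so that Th9+IFNgamma was lower by 1.68-fold or more. With normexp, another background correction, the plain ratio to the undetected signal was 1.32-fold, which is no bound. Slc7a10 (asc-1) and Slc7a11 (the cystine and glutamate exchanger xCT) were undetected, that is, neither array had them well above background. Among partners of CD98 heavy chain, LAT1 was thus higher in Th9+IFNgamma and both y+LAT genes lower. Slc7a9, the partner of Slc3a1, was dim, at 16.7 and 18.4, within its error of 0.35. Slc7a6os, whose yeast relative helps import RNA polymerase II into the nucleus, read 1489 and 1467, so that the gene opposite Slc7a6 did not share its difference.

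Slc7a7 is shown as the light chain gene with the lowest difference among those measured on both arrays. Its most upstream window, at chr14:54417945-54418194 on the minus strand, held 1 match to the response element core, 141 bases before the start. Of 5 annotated starts, another also had such a match, 243 bases before it. Of all 32851 windows, 3.44% held this core.
Slc7a7: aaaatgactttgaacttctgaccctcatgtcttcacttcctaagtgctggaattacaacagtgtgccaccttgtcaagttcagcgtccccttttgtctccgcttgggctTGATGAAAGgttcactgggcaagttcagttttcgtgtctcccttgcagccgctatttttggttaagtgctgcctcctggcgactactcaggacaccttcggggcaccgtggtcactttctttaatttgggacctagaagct

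Cationic carriers of the CAT group bring arginine, lysine and ornithine into the cell. Slc7a1, which encodes CAT1, was alike in both cultures, at 2309 and 2065 in Th9+IFNgamma and Th9 (log2 difference 0.16, error 0.20), and its second probe gave 0.09. Slc7a3 (CAT3) was read at 202 and 141, a difference of 0.52 with an error of 0.21 (alternatives 0.35 to 0.63). Slc7a2, the CAT2 carrier linked to arginine use in macrophages, was undetected on both arrays. These carriers thus gave no difference of 2-fold.

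Slc7a4, a relative of the CAT carriers without a settled transport activity, was the only member measured on both arrays that was at least 2-fold lower. Its single probe read 30.0 in Th9+IFNgamma and 67.2 in Th9, a log2 difference of -1.17 with an error of 0.24, and the raw spots stood 46.0 and 82.0 units above their local background. With normexp the difference was -0.59, under the threshold. Slc7a14, another relative, was detected in Th9+IFNgamma alone, at 26.05 against 8.22, a gap of 2.08-fold or more (a plain ratio of 1.20-fold with normexp), while both arrays left its other probe undetected.

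The main glutamine carriers differed little between the cultures. Slc1a5 encodes ASCT2, a glutamine exchanger that is raised when T cells are activated. It read 13415 in Th9+IFNgamma and 12945 in Th9, a log2 difference of 0.05 with an error of 0.20, and it crossed 0 under the alternatives (-0.04 to 0.17). Slc38a1 (SNAT1) and Slc38a2 (SNAT2) are sodium-coupled importers of glutamine and alanine. Slc38a1 had 8188 and 8956 by its brightest probe, and its 5 probes ran from -0.13 to 0.24. Slc38a2 had 6549 and 5789, with 0.18 and 0.02 by its 2 probes. None of these differences exceeded its error at the brightest probe.

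Other Slc38 genes were within 2-fold or were detected on 1 array or neither. Slc38a7, which encodes SNAT7, a lysosomal exporter of glutamine and asparagine, read 149 against 220.3, a log2 difference of -0.57 with an error of 0.21 (alternatives -0.59 to -0.45). Slc38a9, which senses arginine for mTORC1, read 1115 against 1314, and its 3 probes gave -0.24 to -0.04. Slc38a10, another family member, was at 8813 and 9764 (-0.15 and 0.03 by its 2 probes). Slc38a3 and Slc38a4 were detected on the Th9 array alone, at 22.4 and 16.8. In Th9+IFNgamma they were lower by 2.02-fold or more and 1.51-fold or more, and with normexp the plain ratios were 1.27-fold and 1.35-fold. The bound of Slc38a4 (log2 -0.60) was smaller in size than its extraction error of 0.91. Its other probe was undetected on both arrays, at 4.50 in Th9+IFNgamma and 2.91 in Th9. Slc38a5, Slc38a8 and Slc38a11 were undetected on both arrays. Of 10 Slc38 genes, 5 were thus measured on both arrays, with 1 difference above 0 and 4 below.

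The rest of the Slc1 family carries glutamate or exchanges serine, alanine and cysteine. Slc1a4 (ASCT1) read 128 in Th9+IFNgamma and 96.7 in Th9, with log2 differences of 0.40 and 0.57 by its 2 probes and 0.16 with normexp for the brighter probe. Slc1a3, the glutamate carrier GLAST, was detected in Th9 alone, at 41.8, while the other array read 2.34. Th9+IFNgamma was thus lower by 3.76-fold or more, and the ratio of the 2 signals was 1.74-fold with normexp. Slc1a6 was dim on both arrays (16.3 and 15.25), with an error of 0.38. Slc1a1, Slc1a2 and Slc1a7 were undetected on both arrays.

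Slc6a13 was the member with the widest difference. It encodes GAT2, a sodium and chloride coupled carrier of GABA and taurine that is best known from liver, kidney and the membranes around the brain. Its brighter probe read 208 in Th9+IFNgamma and 27.3 in Th9, and the other probe read 150.5 and 30.5. Both probes were above background on both arrays and both were higher in Th9+IFNgamma, by 7.59-fold and 4.93-fold. The log2 difference of the brighter probe was 2.93 with an error of 0.25, and the raw spots stood 234 and 36.5 units above local background. With normexp, which adds an offset of 50 to every spot, the difference was 1.55 for this probe and 1.13 for the other, still over 2-fold. Among spots of probes printed 10 times, single spots with a signal below 64 scattered around the mean of their probe with an SD of 0.27 in log2 difference.

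Slc6a13 has 3 annotated starts, and its most upstream window is shown because the gene had the widest difference. It lies at chr6:121300038-121300287 on the plus strand and held none of the 5 motifs, nor did the windows of the other 2 starts.
Slc6a13: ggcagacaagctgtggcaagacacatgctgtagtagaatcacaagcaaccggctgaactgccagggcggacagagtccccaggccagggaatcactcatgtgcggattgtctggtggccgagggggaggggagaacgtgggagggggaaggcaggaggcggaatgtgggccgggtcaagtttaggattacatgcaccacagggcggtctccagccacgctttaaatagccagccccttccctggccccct

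Slc6a9 encodes GLYT1, a carrier of glycine. It had 1235 in Th9+IFNgamma and 609 in Th9, a log2 difference of 1.02 with an error of 0.20, and raw spots of 1264.5 and 599.5 units over local background in the same order. The value lay just past the 2-fold threshold, and with normexp it was 0.87. Scaling on detected probes alone also took it under the threshold. The most upstream of its 3 windows, at chr4:117835008-117835257 on the plus strand, is shown as the other Slc6 gene past 2-fold and held none of the 5 motifs.
Slc6a9: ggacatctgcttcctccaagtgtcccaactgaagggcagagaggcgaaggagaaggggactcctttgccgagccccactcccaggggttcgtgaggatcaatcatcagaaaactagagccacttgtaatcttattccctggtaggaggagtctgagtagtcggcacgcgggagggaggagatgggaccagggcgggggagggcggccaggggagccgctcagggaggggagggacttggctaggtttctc

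The other Slc6 genes were within 2-fold or not detected. Slc6a6, the taurine carrier TauT, read 7117 in Th9+IFNgamma and 7660 in Th9, with log2 differences of -0.11 and -0.39 by its 2 probes. Slc6a8, which imports creatine, read 67.3 and 82.8 (-0.30, error 0.22). Slc6a17, a carrier of synaptic vesicles, was dim at 23.5 and 27.9, and its measured probes disagreed, with -0.25 and 0.66. Taurine and creatine carriers thus did not share the difference of Slc6a13. The GABA and betaine carriers Slc6a11 and Slc6a12 were undetected on both arrays, and neither were the amino acid carriers Slc6a7, Slc6a14, Slc6a15, Slc6a18, Slc6a19 and Slc6a20b or the monoamine carriers Slc6a2, Slc6a3 and Slc6a4.

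Slc43 genes encode facilitated carriers that need no ion gradient. Slc43a1, which encodes LAT3, a carrier of leucine and other branched-chain amino acids, read 71.6 in Th9+IFNgamma and 34.7 in Th9. Its single probe gave a log2 difference of 1.05 with an error of 0.24, and 0.45 with normexp, which ends the 2-fold call. Slc43a2 (LAT4) read 99.8 and 80.0 (0.32, error 0.21, and 0.08 with normexp). Slc43a3, which carries purine nucleobases rather than amino acids, read 10665 and 11660 (-0.13). The 3 genes thus went from slightly lower to 2-fold higher.

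The window of Slc43a1, at chr2:84840073-84840322 on the plus strand, is shown as it held an E-box, the element bound by MYC and related factors, 64 bases before the start. E-boxes stood in 8 of 61 windows of members, beside 6.02% of all 32851 windows, and no member window held the T-box element (1.12% of all). The response element core was in 3 member windows, GAS in 4 (7.02% of all) and ISRE in 4 (7.13% of all). A match describes letters and does not show binding.
Slc43a1: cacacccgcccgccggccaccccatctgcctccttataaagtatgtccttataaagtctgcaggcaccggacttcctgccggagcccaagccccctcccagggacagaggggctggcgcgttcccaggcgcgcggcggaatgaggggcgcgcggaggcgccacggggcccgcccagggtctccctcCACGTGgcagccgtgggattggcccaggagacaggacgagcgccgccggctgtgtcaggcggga

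Proton-coupled carriers of the Slc36 family, which move amino acids out of lysosomes and across the gut, were within 2-fold throughout. Slc36a1 (PAT1) read 185 in Th9+IFNgamma and 174 in Th9, Slc36a3 64.8 and 71.2, and Slc36a4 60.9 and 64.8. The log2 differences were 0.08, -0.14 and -0.09, each under its error of 0.21 to 0.22. Slc36a2 was undetected on both arrays. The 25 members detected on neither array had scaled signals of at most 15.6 by their brightest probe, and nothing can be said of their direction.

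**Figure D2:**
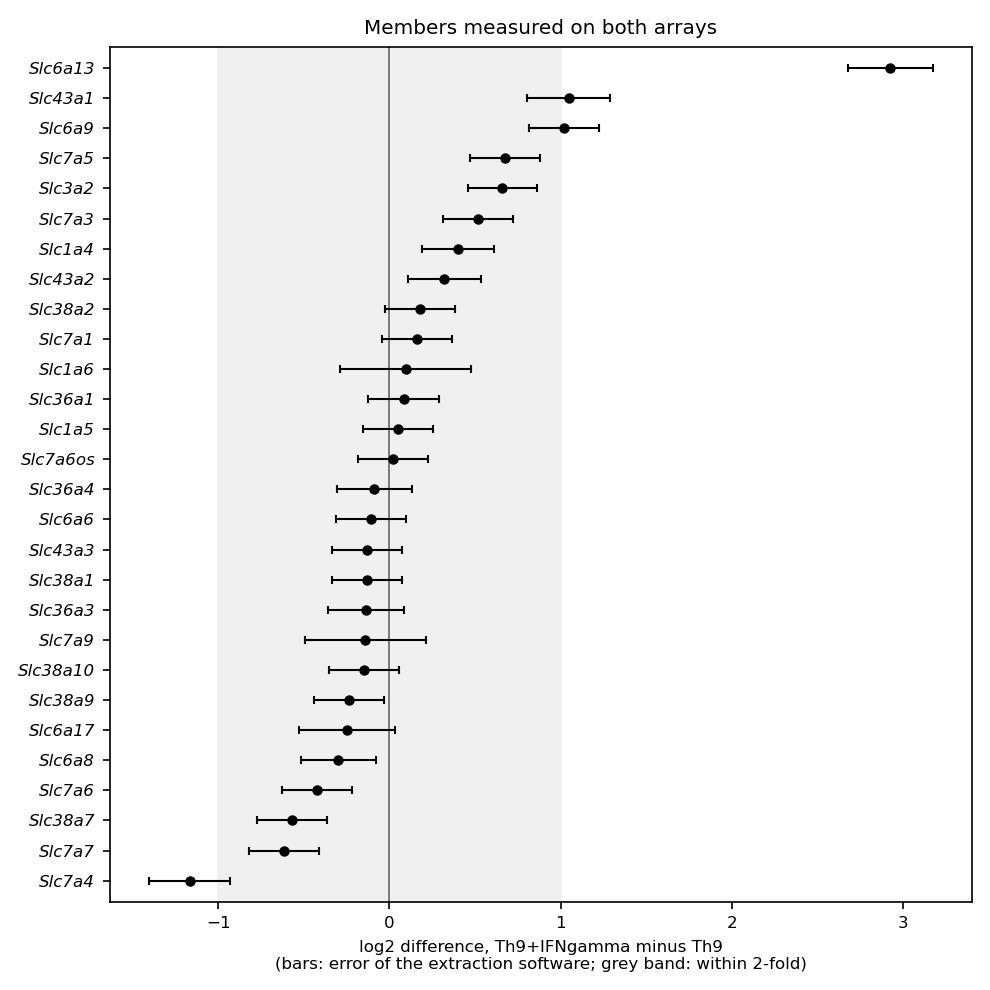
Log2 difference (Th9+IFNgamma minus Th9) of the 28 members measured on both arrays, with bars for the error given by the extraction software for 1 spot on each array and a grey band for differences within 2-fold. Slc6a13 at 2.93, Slc43a1 at 1.05 and Slc6a9 at 1.02 lie above the band and Slc7a4 at -1.17 below it.

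As a set, the members lay where genes in general lay. The median log2 difference was -0.03 over the 28 members and -0.01 over all 12272 named genes measured on both arrays. The middle of the members ran from -0.17 to 0.34 (lower to upper quartile), and that of all genes from -0.36 to 0.31. At least 2-fold higher in Th9+IFNgamma were 3 of 28 members, beside 5.15% of all genes, and at least 2-fold lower was 1 of 28 (3.57%), beside 7.42%. With a 1.5-fold threshold, 5 members were higher (17.9%, beside 12.6%) and 2 lower (7.14%, beside 15.5%). These shares rest on single genes, and with normexp 1 of 28 members (3.57%) was at least 2-fold higher beside 3.56% of all genes. More than 1 probe was measured for 13 members, and the signs of a gene's probes were the same in 8 of them. In Slc36a3, Slc36a4, Slc38a1, Slc38a10 and Slc6a17 they differed.

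**Figure D3:**
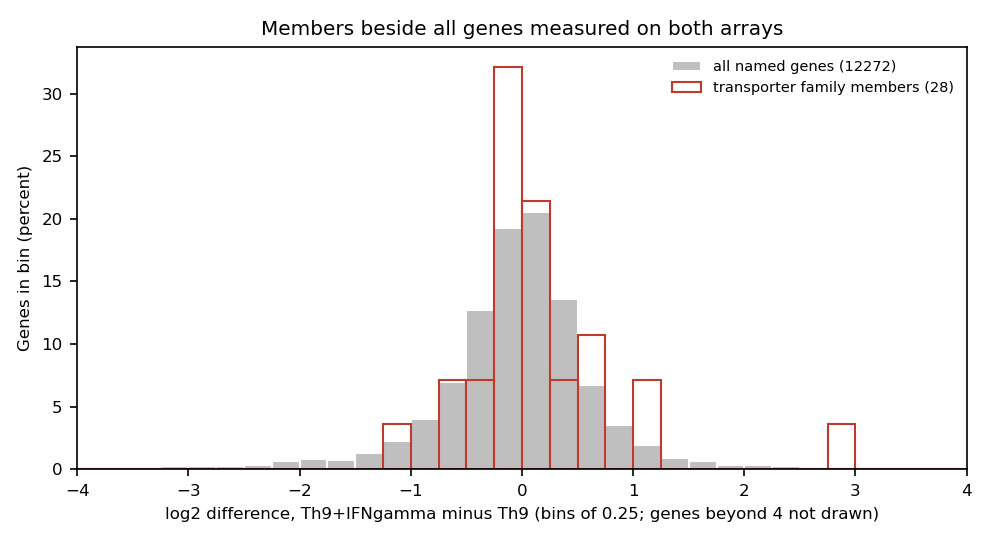
Percent of genes per bin of log2 difference (Th9+IFNgamma minus Th9), in grey for all 12272 named genes measured on both arrays and in red outline for the 28 members. Most members lie near 0, where the median of all genes is -0.01, and Slc6a13 at 2.93 is the only member in its bin.

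Of the 4 members at least 2-fold apart, only Slc6a13 stayed so with normexp. Over the alternatives the difference of Slc6a13 ran from 1.55 to 3.04, of Slc6a9 from 0.87 to 1.13, of Slc43a1 from 0.45 to 1.16 and of Slc7a4 from -1.19 to -0.59. The 8 members that crossed 0 under an alternative were Slc1a5, Slc1a6, Slc36a3, Slc36a4, Slc38a10, Slc6a6, Slc6a17 and Slc7a6os.

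**Figure D4:**
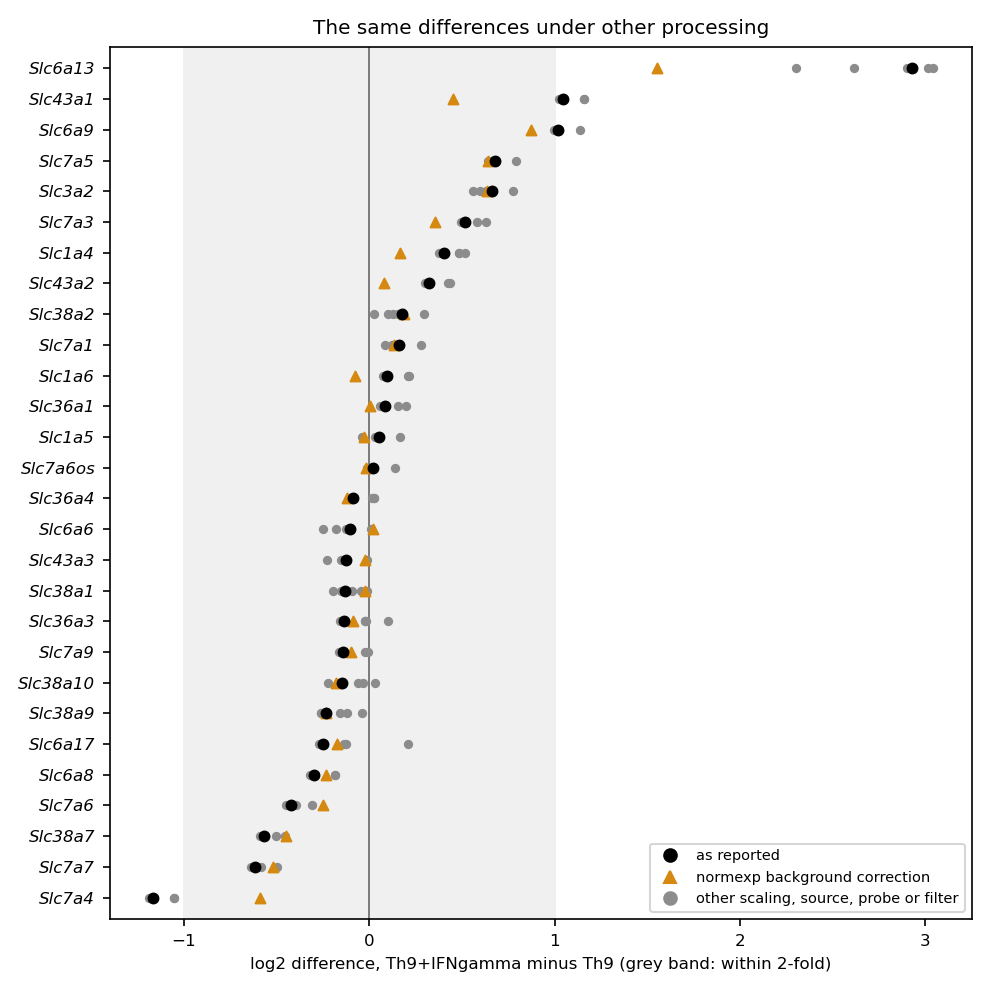
Log2 difference (Th9+IFNgamma minus Th9) of each member measured on both arrays, as reported (black), with normexp background correction (orange triangles) and under the other alternatives of scaling, source, probe choice and filter (grey), with a grey band for differences within 2-fold. The triangle of Slc6a13 stands at 1.55 and those of Slc43a1, Slc6a9 and Slc7a4 lie inside the band.

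Other genes that move, sense or use amino acids were read from lists beside the members. Of 16 other amino acid carriers 12 were measured on both arrays, of which 2 passed the 2-fold threshold, both lower in Th9+IFNgamma (16.7%, beside 7.42% of all genes), and the median was 0.07. These were Slc17a5, a lysosomal exporter of sialic acid that also carries aspartate and glutamate (64.4 against 140, 2.17-fold), and Slc15a3, a lysosomal carrier of histidine and peptides (377 against 778, 2.07-fold). With normexp they had log2 differences of -0.81 and -0.83. Slc32a1, the vesicular GABA carrier, was detected in Th9 alone (5.47 in Th9+IFNgamma and 45.3 in Th9, a gap of 4.08-fold or more), and its log2 difference was -0.80 with normexp.

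For amino acid sensing by mTORC1, 35 of 36 genes were measured, 2 of them past the threshold as higher (5.71%, beside 5.15% of all genes) and 1 as lower (2.86%, beside 7.42%), and the median was 0.03. Sesn2 and Sesn1 encode sestrins, of which the first senses leucine. Sesn2 read 6041 in Th9+IFNgamma against 2217 (2.72-fold) and Sesn1 5450 against 2537 (2.15-fold, and a log2 difference of 1.00, just under the threshold, with normexp). Rragd, a Rag GTPase that recruits mTORC1 to the lysosome, read 2028 against 4926 (2.43-fold lower).

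Genes of the response through ATF4 and MYC numbered 15 measured of 16, of which 3 passed the 2-fold threshold, all higher (20.0%, beside 5.15% of all genes), and the median was 0.31. Nupr1, a stress-induced chromatin protein, was 9.25-fold higher in Th9+IFNgamma (1061 against 115), and Chac1, which breaks down glutathione, 3.02-fold higher (596 against 197). Sesn2, in this list too, was the other. Atf4 itself (3427 against 2763, 1.24-fold higher), Asns, its target in asparagine synthesis (9412 against 6834, 1.38-fold higher), and Myc (5239 against 6454, 1.23-fold lower) lay within 2-fold and were named after their values were seen. So were Ddit4 (1.49-fold lower), Ddit3 (1.35-fold lower) and Trib3 (1.03-fold higher). Of the 15 measured genes, 10 had a difference above 0 and 5 below.

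Of 43 genes of amino acid metabolism 39 were measured, of which 7 passed the 2-fold threshold, all lower in Th9+IFNgamma (17.9%, beside 7.42% of all genes), and the median was 0.05. Gatm, which makes the precursor of creatine, read 117 against 5375 (45.8-fold), and Gad2, which makes GABA from glutamate, 39.7 against 1127 (28.4-fold). The carriers of creatine (Slc6a8) and GABA (Slc6a13) had log2 differences of -0.30 and 2.93, as above. Gls2, a glutaminase, was 3.66-fold lower (1752 against 6418), Cth, an enzyme of cysteine synthesis, 3.53-fold lower (21.6 against 76.3) and Il4i1, an amino acid oxidase, 2.25-fold lower (110.2 against 248). With normexp Cth had -0.75 and Il4i1 -0.91. Glud1 (2.21-fold) and Ido1 (2.10-fold, and -0.43 with normexp), named after their values were seen, completed the 7. Arg1, an arginase, was detected in Th9+IFNgamma alone (19.9 against 2.57, a gap of 1.59-fold or more), and Ido2 in Th9 alone (6.70 against 21.3, a gap of 1.92-fold or more).

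All 20 cytosolic aminoacyl-tRNA synthetase genes of the list were measured, 18 with a difference above 0, beside 6084 of 12272 over all genes, and the median was 0.29. Wars, the tryptophan enzyme, which interferon is known to induce, was the only one at least 2-fold apart, 2.50-fold higher (9649 against 3864). The list for carrier trafficking and heavy chains has 10 genes, among them the members Slc3a1 and Slc3a2. Of these 10 genes 9 were measured, with 2 at least 2-fold lower (22.2%, beside 7.42% of all genes) and a median of 0.13. Differences were above 0 for 5 and below for 4. Sgk1, a kinase that keeps carriers at the surface, was 3.33-fold lower in Th9+IFNgamma (6515 against 21675), and Nedd4, a ubiquitin ligase, 2.13-fold lower (1066 against 2267). Nedd4l, named after its value was seen, was 1.63-fold higher (226 against 139).

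**Figure D5:**
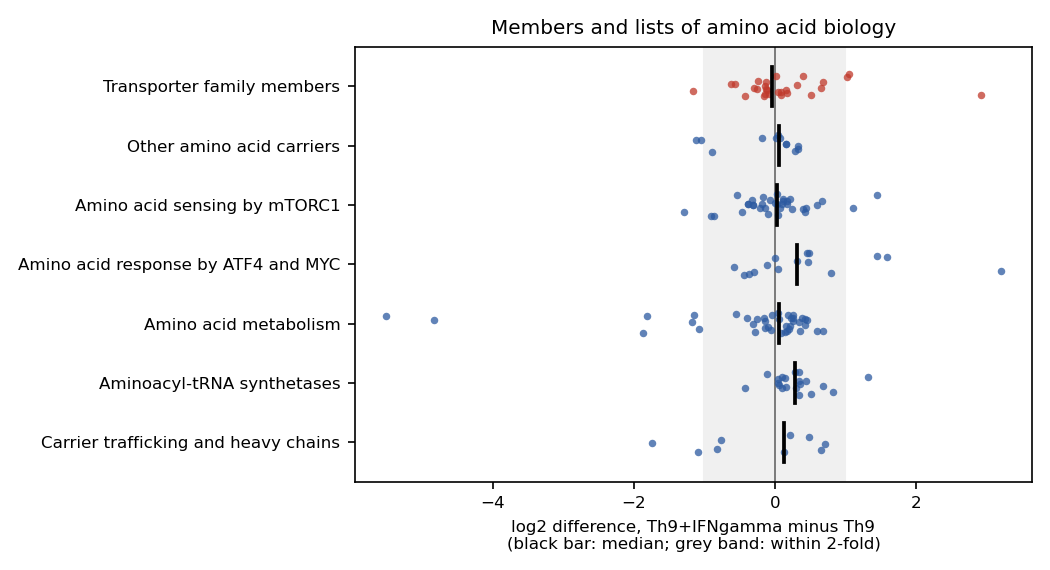
Log2 difference (Th9+IFNgamma minus Th9) of each gene measured on both arrays, in red for the 28 transporter family members and in blue for 6 lists of amino acid biology, with a black bar at each median and a grey band for differences within 2-fold. The medians run from -0.03 (members) to 0.31 (response through ATF4 and MYC), and the lowest points, under amino acid metabolism, are Gatm and Gad2. Slc3a2 is drawn both as a member and in the list of carrier trafficking and heavy chains.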

How the data were processed

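The deposited scanner files hold intensity values. The authors read the slide with version 10.7.3.1 of Agilent Feature Extraction, as stated in the file headers (10.7 per the submitters' processing notes), which subtracts background and detrends each array, per the file headers, without scaling arrays to each other. The deposited log2 table equalled log2 of the processed signal minus the array's 75th percentile (SD of the offset 2.5e-07 and 2.2e-07 over probes printed once; medians -4.05 for Th9+IFNgamma and -3.93 for Th9) and served as an alternative. The headers name mm9 and the name table GRCm38.p6, so gene coordinates are given only with promoter windows.

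Of 41171 probes left after 3 outliers, 27050 matched 1 gene by unversioned RefSeq accession, 0 matched several and 14121 none. On the arrays 60.6% (Th9+IFNgamma) and 59.9% (Th9) of probes were well above background, and 0 spots were saturated. Log2 processed signals, controls left out, were scaled on the 75th percentile (632 and 567). A gene's value is its brightest probe well above background on both arrays. Where only 1 array detected a gene, a bound is given, namely its signal over the higher of the dim signal and the lowest detected signal of the other array (11.1 and 12.5).

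Normexp (limma 3.58.1 in R 4.3.3, offset 50) was planned on mean spot signals and run on median ones, the column at hand. The calculation was tested on simulated data in which only bright genes were changed, each by well over 2-fold. That test does not speak for dim genes or for differences near 2-fold. Every member detected on at least 1 array is named, with, from each list of amino acid biology, up to 5 measured genes at least 2-fold apart and the largest bound each way. Members and lists were chosen with earlier results of these data known. The number of arrays limits the precision. Some genes of these lists are not reported by name here.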

Additional observations from a re-analysis of the deposited data

How the results depend on the processing

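The count of members at least 2-fold higher in Th9+IFNgamma, 3 as reported, was 1 with normexp background correction, 6 without a filter on dim probes, 1 with a mean scaled signal of at least 100 and 5 at a 1.5-fold threshold. The count at least 2-fold lower, 1 as reported, was 0, 8, 0 and 2 in the same order. Scaling on detected probes gave 2 and 1. The members compared, 28 as reported, were 59 without the filter and 18 with a signal of at least 100. The filters by construction change which genes are compared, and the offset of 50 in normexp by construction shrinks the ratios of dim spots. The share of that offset in the lower counts was not tested, nor was any other cause. The members' median ran from -0.14 (no filter) to 0.08 (median scaling), and median scaling moved the median of all genes from -0.01 to 0.11. Leaving out Slc7a6os, chosen after seeing the data, kept both counts at 3 and 1 and gave a median of -0.09. No member at least 2-fold apart changed direction, which rescaling, the deposited table and the filters could hardly have brought about. No paired analysis was possible because each condition has 1 array. Dim members are limited by signal over background.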

Other observations

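In the gene order of RefSeq on GRCm38.p6, Slc6a13 stands next to Usp18, which encodes the protease that removes ISG15 and is a known interferon-induced gene. Usp18 was picked out after its value was seen. Its single probe read 2637 in Th9+IFNgamma and 400.2 in Th9, 6.59-fold higher, beside 7.59-fold for Slc6a13 (log2 differences 2.49 and 1.55 with normexp). The gene on the other side of Slc6a13, its relative Slc6a12, was undetected on both arrays, and Tuba8, beyond Usp18, was 1.40-fold lower (41.7 against 58.5). Other members also had genes past 2-fold nearby. Slc46a3, 2 places from Slc7a1, was 3.93-fold higher in Th9+IFNgamma (1577 against 401). Rhob, next to the undetected Slc7a15, was 4.69-fold lower (24.7 against 116). Whether the signals of Slc6a13 and Usp18 are linked was not tested.

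Members that stand side by side did not otherwise share a difference of 2-fold. Slc38a1 and Slc38a2 are neighbours and had log2 differences of -0.13 and 0.18, with Slc38a4, next to Slc38a2, detected on the Th9 array alone. Slc43a1 and Slc43a3, separated by Rtn4rl2 (64.9 against 64.7), had 1.05 and -0.13. Slc7a6 and Slc7a6os, side by side, had -0.42 and 0.02. Pla2g15, on the other side of Slc7a6 and no member, was 1.58-fold lower in Th9+IFNgamma (657 against 1035).

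The window upstream of Slc7a11 held 2 matches to the ATF4 response element core, 66 and 48 bases before the start, and a GAS match at 183 bases. Its 3 probes were undetected on both arrays, with the brightest at 2.39 in Th9+IFNgamma and 13.7 in Th9.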
